A study of Mus musculus with 4 samples.

Results

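The heat shock chaperone genes described here are 10 mouse genes, Hspa1a, Hspa1b, Hsp90aa1, Hsp90ab1, Hspa8, Hspa5, Dnajb1, Hsph1, Hspd1 and Hspe1, picked by symbol from the 55367 gene rows of the count files. All 10 had reads in every library and all 10 passed the filter on low counts that left 11837 genes to test. The data are 4 bulk RNA-seq libraries of poly(A) RNA from B16-F10 melanoma tumors grown in mice, 2 labeled WT and 2 labeled KO, where KO stands for conditional loss of Satb1, a chromatin organizer of T cells. The labels name CD45.2+ cells, and the extraction protocol names a CD45.2+CD8+ sort. The design text describes floxed Satb1 alleles with ThPOK-cre, which is active in the CD4 lineage, or with E8I-cre, which is active in mature CD8+ T cells, but no label ties a KO library to either driver. Age, sex and the number of animals behind each library are not in the labels, so every p-value below measures only the spread between these 4 libraries, which may be technical.

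Heat shock proteins bind unfolded stretches of other proteins and release them in cycles of ATP binding and hydrolysis. The HSP70 members work with a J-domain partner that starts the cycle and with a nucleotide exchange factor that ends it, and HSP90 takes over partly folded clients such as kinases and steroid receptors. Heat or misfolded protein releases the transcription factor HSF1, which induces the stress-responsive members through heat shock elements in their promoters, while the endoplasmic reticulum (ER) has its own stress response, with HSPA5 at its center. In immune tissue, warm enzymatic dissociation and sorting are known to induce Hspa1a, Hspa1b and Dnajb1 together with immediate early genes.

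The libraries held between 4017875 and 5382915 counts on genes, and the deepest was 1.34 times the shallowest. Satb1 reads numbered 7 and 5 in WT 1 and WT 2 but 131 and 55 in KO 1 and KO 2, higher rather than lower in the libraries labeled KO. The log2 fold change was 3.36 (SE 0.79, edgeR adjusted p = 0.115). That of the 10 T cell markers named below was of like size, with a median of 3.68 (2.70 to 4.89). Counts over a whole library do not give Satb1 per T cell, so they neither bear out nor contradict the labels. The counts cover the whole gene, so a transcript that lacks the floxed part would still be counted. Whether such transcripts or the number of T cells had a part in the Satb1 values was not tested. Since the Satb1 reads do not settle the labels, directions below refer to "libraries labeled KO" and "libraries labeled WT". Xist reads numbered 435 and 216 against 0 and 3, and those of the Y-linked Ddx3y 0 and 0 against 188 and 81, so the sex of the animals and the label cannot be told apart. The 10 T cell markers (CD3 and CD8 chains, T cell receptor constants, Lck and Cd2) took 0.00757% and 0.0121% of counts in WT 1 and WT 2 and 0.252% and 0.132% in KO 1 and KO 2. The 13 macrophage or monocyte markers took 2.97% and 4.03% against 2.31% and 2.88%, so counts on the macrophage list exceeded those on the T cell list in all 4 libraries.

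Promoter windows of 250 bases before to 50 bases after the start site were available from RefSeq (GRCm38.p6) for 7 of the 10 genes. A heat shock element of 2 facing units, GAANNTTC or TTCNNGAA on either strand, occurred in 5 of the 7 (Hspa1a, Hspa1b, Hspd1, Hspe1 and Hsph1), against 17.0% of the 27025 genes with a window. The same element lengthened by 1 more unit (NNGAA after GAANNTTC, or NNTTC after TTCNNGAA), which contains the 2-unit motif, occurred in 3 (Hspd1, Hspe1 and Hsph1), against 0.662% of genes. The ER stress element, CCAAT and CCACG with 9 bases of any kind between them on either strand, occurred in Hspa5 alone of the 7, against 0.137% of genes, and it overlaps a CCAAT box. The Dnajb1 windows held neither element. Each match is a description of letters in the window and not of a bound site. The 4 windows shown here stand for the patterns found, with heat shock elements (Hspa1a, Hspe1, Hsph1) or the ER stress element (Hspa5) in capitals, 5′ to 3′ on the strand of the gene.
Hspa1a promoter, chr17:34972107-34972406, minus strand: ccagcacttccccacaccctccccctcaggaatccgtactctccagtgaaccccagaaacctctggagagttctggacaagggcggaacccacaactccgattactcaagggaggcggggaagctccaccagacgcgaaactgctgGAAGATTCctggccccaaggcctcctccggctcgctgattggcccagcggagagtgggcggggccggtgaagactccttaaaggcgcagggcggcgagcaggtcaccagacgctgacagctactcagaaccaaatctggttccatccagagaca
Hsph1 promoter, chr5:149636266-149636565, minus strand: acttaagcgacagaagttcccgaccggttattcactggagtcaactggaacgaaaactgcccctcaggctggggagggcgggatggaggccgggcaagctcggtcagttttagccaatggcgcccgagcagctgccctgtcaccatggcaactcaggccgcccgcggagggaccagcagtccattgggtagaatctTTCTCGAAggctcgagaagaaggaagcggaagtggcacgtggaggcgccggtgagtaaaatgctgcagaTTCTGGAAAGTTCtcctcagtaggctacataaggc
Hspe1 promoter, chr1:55087898-55088197, plus strand: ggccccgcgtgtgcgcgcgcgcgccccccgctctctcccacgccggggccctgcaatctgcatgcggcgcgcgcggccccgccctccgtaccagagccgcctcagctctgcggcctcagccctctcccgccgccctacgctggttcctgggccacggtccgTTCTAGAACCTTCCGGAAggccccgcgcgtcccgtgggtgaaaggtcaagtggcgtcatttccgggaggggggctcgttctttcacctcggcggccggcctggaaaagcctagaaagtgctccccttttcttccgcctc
Hspa5 promoter, chr2:34771840-34772139, plus strand: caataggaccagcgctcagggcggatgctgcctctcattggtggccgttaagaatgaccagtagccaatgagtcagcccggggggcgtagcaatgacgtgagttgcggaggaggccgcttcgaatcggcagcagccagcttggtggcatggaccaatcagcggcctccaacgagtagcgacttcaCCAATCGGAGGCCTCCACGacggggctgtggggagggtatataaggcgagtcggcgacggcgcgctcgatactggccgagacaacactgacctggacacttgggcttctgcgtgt

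The Hspa1a element lies 104 to 97 bases before the start site. The Hspa1b window, chr17:34959189-34959488 on the minus strand, has its element at the same distance and matches the Hspa1a window at 296 bases, with differences C44T, T47C, T249G and C276T (the Hspa1a base, the position counted from 1 at the 5′ end of the window, and the Hspa1b base). The Hspe1 window shares 285 bases with a window of Hspd1, which is transcribed from the other strand, so the pair reads 1 stretch of DNA in opposite directions. In Hsph1 the 3-unit element lies 15 to 27 bases after the start site.

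None of the 10 chaperone genes passed an adjusted p of 0.05 in the comparison of libraries labeled KO with those labeled WT (edgeR quasi-likelihood test, Benjamini-Hochberg adjustment over 11837 genes), where 68 genes or 0.574% of all those tested did. All 10 had a fitted log2 fold change above 0, from 0.22 for Hspa1a to 2.35 for Hsp90aa1, against 52.6% of all genes tested and 44.3% of the 6244 whose mean normalized CPM (CPM, counts scaled to a common library size with edgeR's TMM factors) reached 20. Their median was 1.01 and that of all genes tested was 0.05. At an unadjusted p of 0.05 there were 4 of the 10, all higher in the libraries labeled KO (Hsph1, Hsp90aa1, Hspd1 and Hspa5), against 9.44% of genes higher in that direction. In 6 of the 10 both libraries labeled KO lay above both labeled WT in normalized CPM, against 25.3% of all genes and 19.3% of those 6244 genes. In CPM on library totals, without TMM factors, this also held for Hspa1b and Dnajb1. The share of all genes on that scale was not computed. The TMM factors were 0.831 and 0.951 in WT 1 and WT 2, and 1.18 and 1.07 in KO 1 and KO 2. DESeq2 called 2 of the 10 (Hsp90aa1 and Hsph1, against 2.84% of genes tested) and edgeR's likelihood ratio test 1 (Hsph1, against 4.7%). Without the filter on low counts edgeR called 2 (Hsp90aa1 and Hspd1, against 2.74%), and with the KO replicate numbers crossed as a block, a choice made after seeing the data, 2 (Hsph1 and Hspd1, against 5.47%). It called 0 with RLE factors (0.549% of genes), upper-quartile factors (0.507%), library totals (1.13%), the replicate number as a block (1.82%), Hspa1a and Hspa1b summed (0.575%) and 3 abundant gene classes removed (0.463%).

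**Figure D1:**
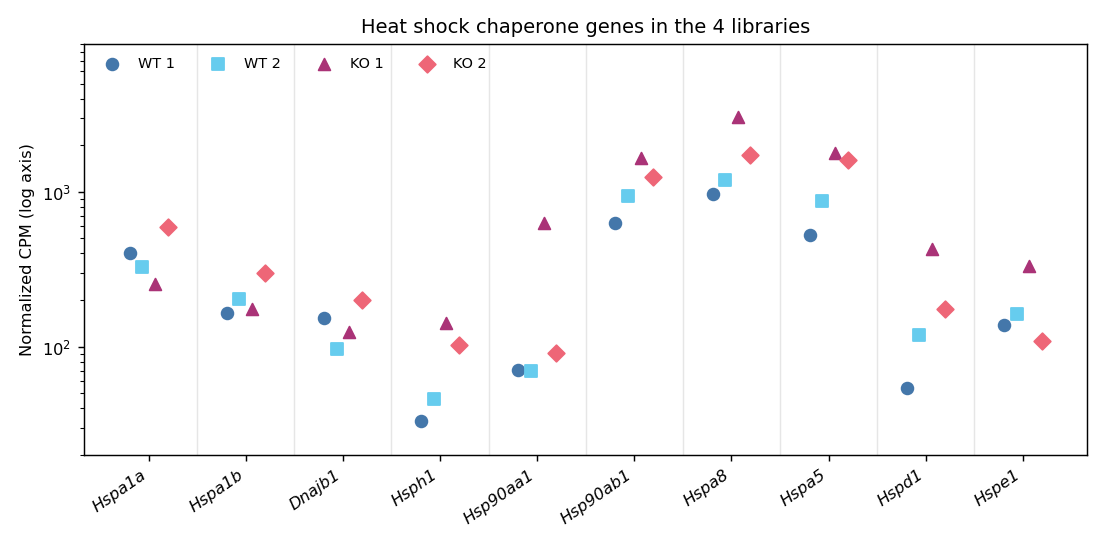
Normalized CPM on a log axis for each of the 10 chaperone genes in each of the 4 libraries. Hsp90aa1 stands near 70 in both libraries labeled WT, at 628 in KO 1 and at 90.4 in KO 2, while Hspa1a is highest in KO 2 and lowest in KO 1.

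The 2 libraries labeled KO were not alike. Across the 6244 genes above, the median absolute log2 difference was 0.65 between KO 1 and KO 2 and 0.35 between WT 1 and WT 2. Leaving out KO 2 gave 4 calls among the 10 (Hsp90aa1, Hspa8, Hsph1 and Hspd1, against 9.71% of genes), and leaving out WT 1, WT 2 or KO 1 gave 0 (against 0.862%, 1.73% and 0.998% of genes). The 10 genes together accounted for 0.259% of gene counts in WT 1 (95% exact interval 0.254 to 0.264), 0.381% in WT 2 (0.375 to 0.387), 1.003% in KO 1 (0.994 to 1.01) and 0.652% in KO 2 (0.645 to 0.659), where the intervals cover counting error only. The share was 0.320% ± 0.0859 (SD, n = 2) against 0.828% ± 0.249 (SD, n = 2), and the smallest p an exact permutation test can give with so few libraries is 0.333. In bulk RNA, fewer cells of a type and less RNA per cell cannot be told apart.

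The stress-inducible HSP70 genes Hspa1a and Hspa1b, which encode near-identical cytosolic chaperones, did not separate the groups in normalized CPM. They lie 9952 bases apart in mm10 (GRCm38), Hspa1a at chr17:34969190-34972156 and Hspa1b at chr17:34956436-34959238, both on the minus strand and each a single exon. Hspa1a stood at 399 and 328 normalized CPM in WT 1 and WT 2, and at 254 and 593 in KO 1 and KO 2. KO 1 was the lowest of the 4 libraries and KO 2 the highest, so the groups overlapped. Its log2 fold change was 0.22 (SE 0.53, edgeR adjusted p = 0.885), and it turned to -0.56 without KO 2 and was 0.70 without KO 1. Hspa1b stood at 166 and 202 in the libraries labeled WT and at 174 and 298 in KO 1 and KO 2. On this scale only KO 2 lay above both libraries labeled WT. In CPM on library totals Hspa1b stood at 137 and 191 in WT 1 and WT 2 and at 204 and 317 in KO 1 and KO 2, without overlap. Its log2 fold change was 0.36 (SE 0.46, edgeR adjusted p = 0.764), or -0.11 without KO 2. Of the 50-base stretches of Hspa1a transcripts, 66.3% also occur in transcripts of other genes, 58.8% in Hspa1b, so reads can be split between the pair or set aside as ambiguous, and each gene's level is uncertain. On the other strand, 564 exonic bases (19.0%) of Hspa1a overlap Gm20481, and the strand setting of the counting is not given in the sources used here.

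Dnajb1, the J-domain partner that starts the HSP70 cycle, also overlapped between the groups in normalized CPM. It stood at 154 and 96.3 normalized CPM in WT 1 and WT 2, and at 123 and 199.9996 in KO 1 and KO 2. KO 2 was the highest library and KO 1 lay between the libraries labeled WT. In CPM on library totals Dnajb1 stood at 127 and 91.3 in WT 1 and WT 2 and at 145 and 213 in KO 1 and KO 2, without overlap. The log2 fold change was 0.37 (SE 0.47, edgeR adjusted p = 0.759), and -0.052 without KO 2. Hsph1, the HSP110 nucleotide exchange factor that completes that cycle, differed in its pattern. It stood at 33.1 and 45.8 normalized CPM in WT 1 and WT 2, and at 141 and 102 in KO 1 and KO 2. Both libraries labeled KO lay above both labeled WT, and the gap between the groups was wider than the gap within either. The mean was 39.4 ± 9.02 (SD, n = 2) against 122 ± 27.4 (SD, n = 2), a log2 fold change of 1.62 (SE 0.44, edgeR adjusted p = 0.166). Hsph1 held the smallest unadjusted p of the 10 and kept a log2 fold change of 1.34 to 1.82 when each library was left out in turn.

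Immediate early genes, which the same handling is known to induce, took a larger share of counts in KO 2 than in KO 1, as did Hspa1a, Hspa1b and Dnajb1. The 20 genes of that list (Fos, Jun, Egr1, Dusp1 and others) held 0.936% and 0.966% of gene counts in WT 1 and WT 2, 0.878% in KO 1 and 1.98% in KO 2. Their median log2 difference of KO 1 from KO 2 was -1.19, beside -1.22 for Hspa1a, -0.77 for Hspa1b and -0.70 for Dnajb1. Of the 20, 15 had more normalized CPM in KO 2 than in KO 1, and 5 had less (Fosb, Fosl2, Ier2, Ier5 and Klf4). The 13 macrophage or monocyte markers also went this way, with a median of -1.04, and their summed share was 2.31% in KO 1 and 2.88% in KO 2. The other 7 chaperone genes were higher in KO 1 than in KO 2, by 0.14 (Hspa5) to 2.80 (Hsp90aa1) on the log2 scale. Between the labels 17 of the 20 had a log2 fold change above 0 (against 52.6% of all genes). None passed an adjusted p of 0.05 in edgeR (against 0.574%) or an unadjusted one (against 9.44% of genes higher), and DESeq2 (2.84%) and the likelihood ratio test (4.7%) called 0, where such shares of 20 genes come to few or none. The 3 with the smallest unadjusted p were Nr4a1 (log2 fold change 1.35), Egr2 (1.15) and Klf2 (-1.11). Whether handling or the number of macrophages had a part in the Hspa1a, Hspa1b and Dnajb1 values was not tested.

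Hsp90aa1, the inducible cytosolic HSP90, rested its fold change on KO 1. It stood at 70.6 and 69.8 normalized CPM in WT 1 and WT 2, at 628 in KO 1 and at 90.4 in KO 2. Both libraries labeled KO lay above both labeled WT, but KO 2 exceeded WT 1 by far less than it fell short of KO 1. The log2 fold change was 2.35 (SE 0.78, edgeR adjusted p = 0.240), 3.12 without KO 2 and 0.36 without KO 1. The log2 difference of 2.80 between KO 1 and KO 2 was above the 90th percentile of 1.58 for genes of at least 20 normalized CPM. Of its 50-base stretches 58.5% occur in other genes' transcripts, mostly those of Gm12346, whose reads numbered 1 and 2 in WT 1 and WT 2, and 34 and 5 in KO 1 and KO 2.

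Hsp90ab1, the HSP90 made constitutively, was the more even of the pair. It stood at 627 and 942 normalized CPM in WT 1 and WT 2, and at 1641 and 1237 in KO 1 and KO 2. The groups did not overlap, and the gap between WT 2 and KO 2 was narrower than the gap within either group. The log2 fold change was 0.88 (SE 0.51, edgeR adjusted p = 0.474). The ratio of Hsp90aa1 to Hsp90ab1, each per kb of exon, was 0.0859, 0.0566, 0.292 and 0.0558 in WT 1, WT 2, KO 1 and KO 2, so Hsp90ab1 was the more abundant in every library and KO 1 alone stood apart.

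**Figure D2:**
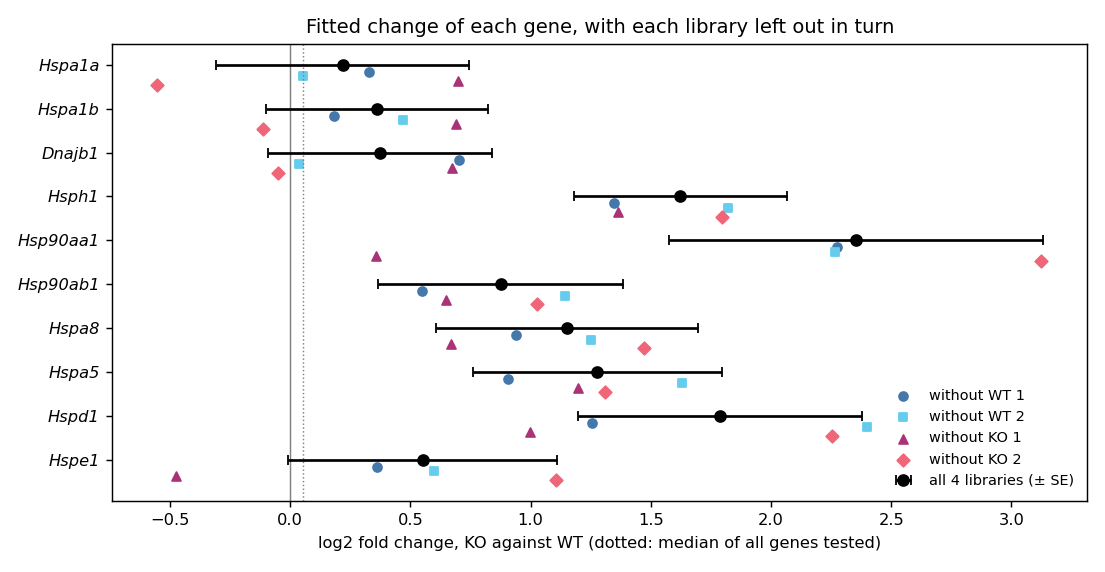
Log2 fold change of libraries labeled KO over those labeled WT for the 10 chaperone genes, with the standard error of the fit and the values with each library left out, and the median of all genes tested as a dotted line. All 10 lie above 0 in the fit of 4 libraries, and those of Hspa1a, Hspa1b, Dnajb1 and Hspe1 change sign when 1 library labeled KO is left out.

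Hspa8, the constitutive HSP70 that folds new proteins and uncoats clathrin vesicles, was in place 1 or 2 of the 10 per kb of exon in every library. It stood at 962 and 1186 normalized CPM in WT 1 and WT 2, and at 3058 and 1715 in KO 1 and KO 2. Both libraries labeled KO lay above both labeled WT, and KO 1 was the highest by a wide margin. The log2 fold change was 1.15 (SE 0.54, edgeR adjusted p = 0.389), 1.47 without KO 2 and 0.67 without KO 1. Since 74.8% of its 50-base stretches occur in other transcripts, mainly those of Gm15459, its level is uncertain too. The summed level of Hspa1a and Hspa1b, per kb, was 0.866 and 0.662 of the Hspa8 level in WT 1 and WT 2, 0.208 in KO 1 and 0.768 in KO 2. KO 1 had the lowest of these ratios, and KO 2 lay between the libraries labeled WT. With transcript length in place of exon length all 4 were lower, at 0.482, 0.368, 0.116 and 0.427, in the same order.

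Hspa5, the HSP70 of the ER (BiP), stood at 527 and 868 normalized CPM in WT 1 and WT 2, and at 1776 and 1606 in KO 1 and KO 2. The libraries labeled KO were close to each other and both above those labeled WT. The means were 698 ± 241 (SD, n = 2) and 1691 ± 120 (SD, n = 2), a log2 fold change of 1.28 (SE 0.52, edgeR adjusted p = 0.321) that stayed between 0.90 and 1.63 with each library left out. Hspa5 shared no 50-base stretch with another gene's transcripts.

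Hspd1 and Hspe1 encode the mitochondrial chaperonin HSP60 and its lid HSP10, and stand head to head on chromosome 1, with 112 exonic bases in common on opposite strands. Hspd1 stood at 54.1 and 119 normalized CPM in WT 1 and WT 2, and at 424 and 174 in KO 1 and KO 2. The groups did not overlap, but the libraries within each differed by more than a log2 unit. The log2 fold change was 1.79 (SE 0.59, edgeR adjusted p = 0.240), from 0.996 without KO 1 to 2.40 without WT 2, and 2.25 without KO 2. Hspe1 stood at 139 and 162 in WT 1 and WT 2, and at 332 and 109 in KO 1 and KO 2. KO 2 was the lowest library of the 4 and KO 1 the highest. In CPM on library totals Hspe1 was lowest in WT 1 (114.7) and next in KO 2 (115.6). Its log2 fold change was 0.55 (SE 0.56, edgeR adjusted p = 0.696), or -0.48 without KO 1. The ratio of Hspe1 to Hspd1 per kb was 4.59 and 2.44 in WT 1 and WT 2, and 1.40 and 1.12 in KO 1 and KO 2, with no overlap between the groups. With transcript length it was 8.02, 4.26, 2.45 and 1.95, again without overlap. For 2 against 2 libraries the smallest p an exact permutation test can give is 0.333. Of the 50-base stretches of Hspd1, 44.8% occur in other genes' transcripts, mostly those of Hspd1-ps3, and of those of Hspe1 44.8%, so both levels and their ratio are uncertain.

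**Figure D3:**
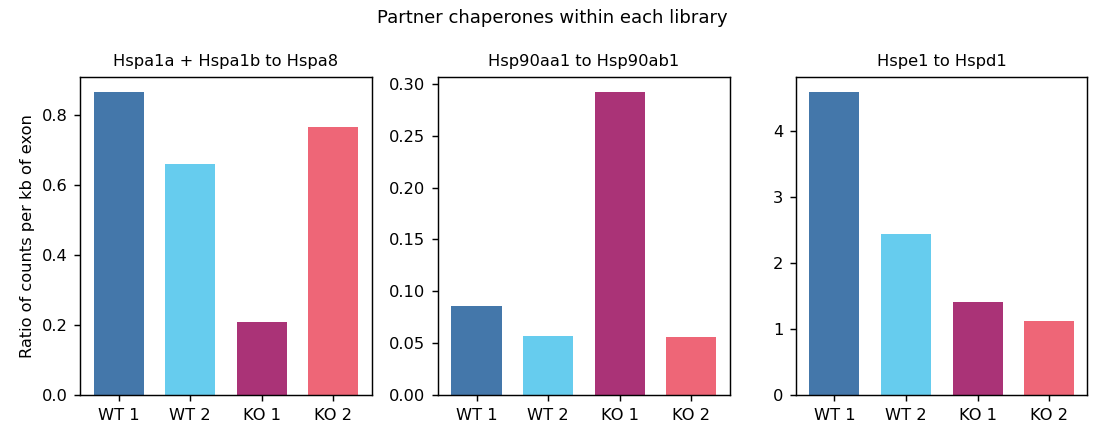
Ratios of partner chaperones per kb of exon within each library, as bars from 0 with an axis of its own for each ratio. KO 1 is the lowest in Hspa1a plus Hspa1b to Hspa8 (0.208) and the highest in Hsp90aa1 to Hsp90ab1 (0.292), and both libraries labeled KO are below both labeled WT in Hspe1 to Hspd1.

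Levels per length put Hspa8 and Hsp90ab1 first. In CPM per kb of exon, Hspa8 ran from 185 to 834 over the 4 libraries and Hsp90ab1 from 173 to 642, and they exchanged the first place between libraries, so by this length their order is not fixed beyond the spread. Hspa5 followed at 103 to 493, in place 3 or 4 in every library. Hspa1a (100.4 to 213) and Hspe1 (77.8 to 264) overlapped each other, as did Hspd1 (17.0 to 189), Hspa1b (49.01 to 113) and Hsp90aa1 (14.9 to 188). Dnajb1 lay at 28.5 to 66.4, and Hsph1 was last in all 4 libraries at 3.77 to 22.8. With the longest protein-coding transcript as the length, a choice made after seeing the data, Hspa8 came first and Hsp90ab1 second in all 4 libraries. The mean of Hspa8 was then 766 in place of 426, that of Hspe1 249.9 in place of 131 (which moved it to place 4), and that of Hsph1 22.7 in place of 11.9, still last.

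**Figure D4:**
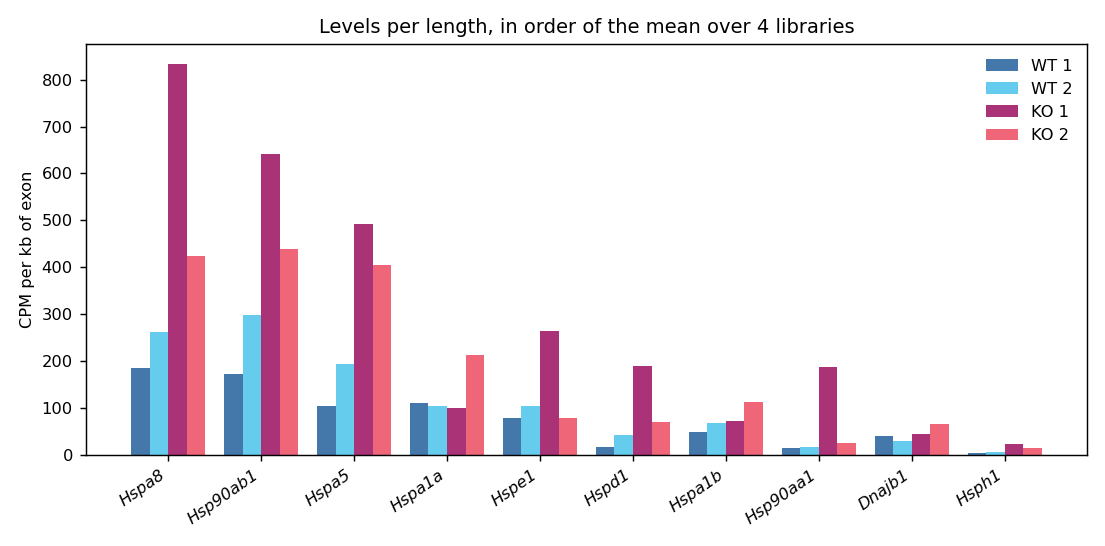
CPM per kb of exon for the 10 chaperone genes in each library, as bars from 0 on a linear axis, ordered by mean level. Hspa8 and Hsp90ab1 are at the top in every library and Hsph1 is at the bottom, between 3.77 and 22.8.

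The genes outside the 10 whose centered log2 profile over the 4 libraries lay nearest to the mean profile of the 10 were Cenpa (distance 0.0765), Etnk1 (0.0796), Cnot1 (0.0917), Ipo5 (0.101) and Cct6a (0.103), out of 6234 genes searched. The mean profile stood at -0.61, -0.34, 0.72 and 0.24 in WT 1, WT 2, KO 1 and KO 2. Among the 10 themselves Hsp90ab1 (0.237) and Hspa8 (0.287) were nearest to it and Hsp90aa1 (1.83) and Hspa1a (1.53) farthest.

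Of 97 further genes of the chaperone network, 91 were tested and none passed an adjusted p of 0.05 in edgeR in either direction, against 0.574% of all genes tested. An unadjusted p of 0.05 was passed by 15, each with a positive log2 fold change, against 9.44% of all genes in that direction. DESeq2 called 5 of them (against 2.84% of all genes) and the likelihood ratio test 5 (against 4.7%, a share near that of the 91). The median log2 fold change was 0.37, with 59 above 0 and 32 below, against 52.6% of all genes above 0. Among cytosolic HSP70, J-domain and HSP90 partners, 9 of 40 passed the unadjusted threshold (9.44% of all genes), led by the HSP90 partners Chordc1 (log2 fold change 1.88, SE 0.51, edgeR adjusted p = 0.161) and Ppid (2.12, SE 0.65, edgeR adjusted p = 0.216) and the ribosome-associated J-domain protein Dnajc2 (2.50, SE 0.73, edgeR adjusted p = 0.189). Of the 14 genes of the CCT chaperonin and prefoldin, which fold actin and tubulin, 2 passed it (again against 9.44%), the prefoldin subunit Vbp1 (1.57) and the CCT subunit Cct6a (1.06), and Cct4 was at 0.83.

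Of 24 ER genes 4 passed the unadjusted threshold, all higher in the libraries labeled KO, against 9.44% of all genes. Serpinh1, the collagen chaperone HSP47, stood at 6.01 and 6.44 normalized CPM in WT 1 and WT 2, and at 89.8 and 29.3 in KO 1 and KO 2, a log2 fold change of 3.25 (SE 0.63, edgeR adjusted p = 0.0612). Hsp90b1, the HSP90 of the ER, was at 2.03 (SE 0.63, edgeR adjusted p = 0.221), and Dnajb9, a J-domain partner of HSPA5, at 1.56. The 6 fibroblast or endothelium markers, which include collagen genes, held 0.00207% and 0.00192% of counts in WT 1 and WT 2 and 0.136% and 0.0198% in KO 1 and KO 2, and their part in the Serpinh1 value was not tested. Of 11 other mitochondrial chaperone, import and protease genes none passed the unadjusted threshold, with Hspa9 (mitochondrial HSP70) at 0.96, Clpx (the unfoldase of the Clp protease) at 1.07 and Grpel1 (the exchange factor of HSPA9) at -0.26. Of the heat shock factors and their regulator only Hsf1 (-0.26) and Hsbp1 (-0.60) were tested, and neither passed.

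**Figure D5:**
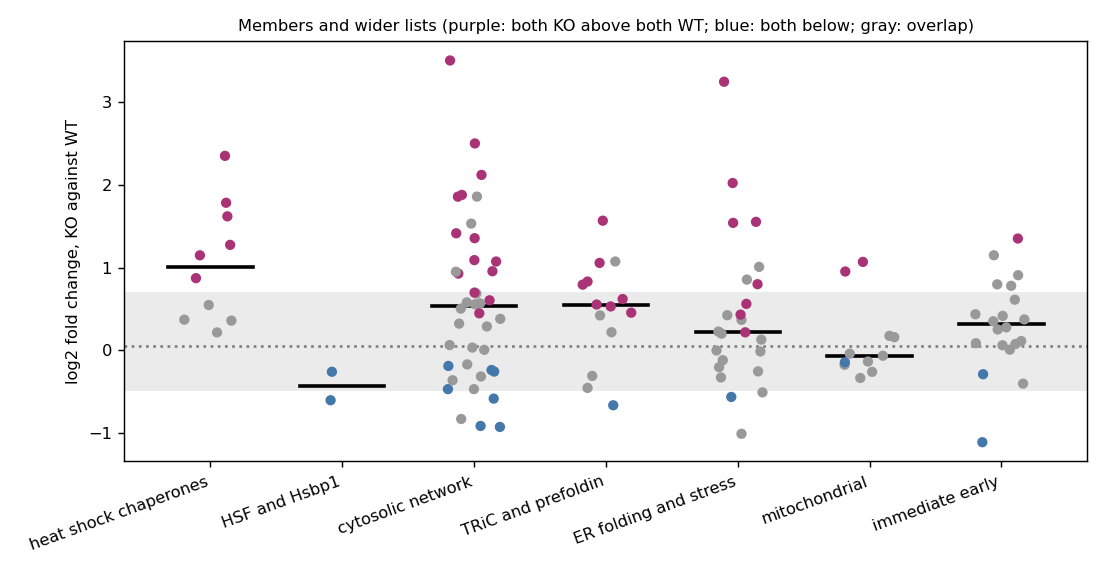
Log2 fold change of libraries labeled KO over those labeled WT for each tested gene of the chaperone lists and the immediate early list, one column of points per list with its median as a black line, colored by whether both libraries labeled KO lay above (purple) or below (blue) both labeled WT. The dotted line is the median and the gray band the middle quartiles of all genes tested. Serpinh1 at 3.25 is among the highest points, and the medians run from -0.43 (heat shock factors) to 1.01 (the 10 chaperone genes).

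Of all single genes tested, compared in normalized CPM, 47.9% did not overlap between the labels. On another scale, that of library totals, shares of counts on 9 of the 10 marker lists did not overlap either, in both directions. They were higher in both libraries labeled KO for the T cell, dendritic cell, NK cell, melanoma, and fibroblast or endothelium lists, and lower for the B cell, neutrophil, macrophage or monocyte, and CD4 T cell lists, while the erythroid list overlapped. In edgeR at an adjusted p of 0.05, 9 of 10 T cell markers passed, as did 1 of 8 melanoma markers, 1 of 6 dendritic cell markers tested and 3 of 4 fibroblast or endothelium markers tested, all higher in the libraries labeled KO, where 0.549% of all genes passed in that direction. The 8 melanoma markers held 0.0226% and 0.0268% of counts in WT 1 and WT 2 and 0.239% and 0.132% in KO 1 and KO 2, none at 0 in any library, and the 8 dendritic cell markers held 0.00645% and 0.0111% against 0.0544% and 0.0424%, with Flt3 at 0 in WT 1 and KO 2 and Xcr1 at 0 in WT 1. The median log2 difference of KO 1 from KO 2 over the dendritic cell markers tested was -0.25, although their summed share was higher in KO 1. The NK cell list held 0.00124% and 0.00291% against 0.0191% and 0.00713%, with Ncr1 and Klrb1c at 0 in WT 1 and KO 2. By summed share, in these lists as in the T cell and the fibroblast or endothelium lists, KO 1 was the highest library and both libraries labeled KO were above both labeled WT, the pattern of Hsp90aa1, Hsp90ab1, Hspa8, Hspa5, Hspd1 and Hsph1. The part of these cell types in the chaperone values was not tested.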

How the data were processed

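RNA-seq was done on 2 libraries labeled WT and 2 labeled KO. The authors aligned reads to mm10 with HISAT2 2.1.0 and deposited whole-number counts per gene from HTSeq 0.11.0. The annotation and the strand setting are not given in the sources used here. HTSeq rows that name no gene held 79.5%, 77.2%, 77.7% and 71.2% of all counts in WT 1, WT 2, KO 1 and KO 2 and were left out of library sizes. Counts were filtered with filterByExpr (minimum count 10, minimum total 15), scaled by TMM and tested with the quasi-likelihood F test of edgeR 4.0.16 in R 4.3.3, with group as the only term, Benjamini-Hochberg adjustment over all genes tested and a threshold of 0.05. The script was tested on simulated data. DESeq2 1.42.0 served as an alternative. Normalized CPM divide counts by the filtered library total times its TMM factor. Exon lengths and 1-based positions came from GENCODE M21 (GRCm38), whose symbols matched 96.3% of gene rows. Libraries with the same number did not deviate together (r = -0.18 over 11837 genes), so the numbers were not used as pairs. The 10 genes and the gene lists were chosen with earlier results of these data known. All 10 genes are named, and of each chaperone network list and the immediate early list up to 3 genes with the smallest unadjusted p, since no gene of those lists passed the threshold. Other immediate early genes are named only to show what the list holds or which way they went, chosen after their values were seen. Cell type markers are given as list shares and counts. Genes of like profile were the 5 nearest by Euclidean distance among those with a mean of at least 20 normalized CPM.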

Additional observations from a re-analysis of the deposited data

How the results depend on the processing

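Counts of calls depended on the processing, and the direction of the 10 chaperone genes did so only through single libraries. The 68 genes past the threshold became 134 with library totals only, 583 with no filter on low counts, 378 in DESeq2 and 556 in the likelihood ratio test. The 0 calls among the 10 chaperone genes became 2 with no filter (Hsp90aa1 and Hspd1), 2 in DESeq2 and 1 in the likelihood ratio test, and the 0 calls in the wider network became 1 with library totals (Serpinh1) and 5 in each of the other 3. With library totals the median log2 fold change of the 10 was 1.35, while that of all genes tested moved from 0.05 to 0.39. Leaving out each library in turn gave 113 to 1248 genes, 0 to 4 of the 10, 0 to 13 network genes (the highest without KO 2, where 9.71% of all genes were called), 0 to 2 immediate early genes and a median of 0.68 to 1.21 for the 10. The gene counts were 113 without WT 1, 228 without WT 2, 123 without KO 1 and 1248 without KO 2, the other highest values came without KO 2, and the lone library of a group was assumed to vary like the others. Sign changes were seen in Hspe1 (-0.48 to 1.11), Hspa1a (-0.56 to 0.70), Hspa1b (-0.11 to 0.69) and Dnajb1 (-0.052 to 0.70) over the fits that left out 1 library. RLE and upper-quartile factors, the sum of Hspa1a and Hspa1b, and a fit without genes of the mitochondrial genome, ribosomal proteins or antigen receptors gave 0 calls among the 10. With the longest transcript as the length, the mean ratio of Hspa1a plus Hspa1b to Hspa8 in the libraries labeled WT was 0.425 in place of 0.764, and that of Hspe1 to Hspd1 was 6.14 in place of 3.52 in those labeled WT and 2.20 in place of 1.26 in those labeled KO, since both lengths enter the ratio. Beyond the removal of libraries and the change of length, the cause of these changes was not tested.

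With the replicate number as a block there were 215 genes past the threshold, 0 of the 10 and 1 network gene. A crossed pairing, added after seeing the data, gave 647 genes, 2 of the 10 and 6 of 91 network genes, where 5.47% of all genes were called.

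The standard errors of the log2 fold changes of the 10 ran from 0.44 (Hsph1) to 0.78 (Hsp90aa1), so 0 calls among them does not show that their levels were alike in the groups.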

Other observations

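Some genes of the chaperone network outside the 10, named here after their values were seen, did not share 1 pattern. Of the 91 network genes tested, both libraries labeled KO lay above both labeled WT in 32 and below both in 12. Over all genes tested, 25.3% lay above in this way and 47.9% did not overlap in either direction. The small heat shock protein gene Hspb1 stood at 22.2 and 17.6 normalized CPM in WT 1 and WT 2, and at 8.18 and 12.9 in KO 1 and KO 2, with both libraries labeled KO below both labeled WT and a log2 fold change of -0.91 (SE 0.55, edgeR adjusted p = 0.485). Bag3, a partner of HSP70 in selective autophagy, stood at 66.4, 50.8, 44.1 and 73.6 in WT 1, WT 2, KO 1 and KO 2, with KO 1 lowest and KO 2 highest, as for Hspa1a, and a log2 fold change of 0.01 (SE 0.45, edgeR adjusted p = 0.996). Dnaja1, a J-domain partner of HSPA8, stood at 112, 124, 449 and 182, with both libraries labeled KO above both labeled WT and a log2 fold change of 1.42 (SE 0.53, edgeR adjusted p = 0.288). The HSP90 partner Fkbp4 stood at 83.9, 94.6, 217 and 241, also without overlap, with a log2 fold change of 1.36 (SE 0.42, edgeR adjusted p = 0.221), while Ahsa1, which activates the HSP90 ATPase, stood at 131, 137, 112 and 116, both libraries labeled KO below both labeled WT, with a log2 fold change of -0.24 (SE 0.41, edgeR adjusted p = 0.832).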
